A study of Mus musculus with 12 samples.

Results

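Drug efflux ABC transporters were followed in mouse blood stem and progenitor cells through 7 genes: Abcg1, Abcg2, Abcg3, Abcb1a, Abcb1b, Abcc1 and Abcc4. Of the 19494 genes measured, these 7 were picked by name, and each was read by 1 probe set. For 6 of them the choice used gene family membership. Abcg3 was chosen from its measured values, since it read higher in NFAT5-deficient stem cells than in NFAT5-deficient progenitors. Every Abcg3 difference that involves an NFAT5-deficient group is therefore a description with no test.

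The study asked how loss of NFAT5, a transcription factor known for the response to hypertonic stress, affects gene expression in marrow that regenerates after transplantation. Wild-type donors were Nfat5 +/+ Vav-Cre mice and NFAT5-deficient donors were Nfat5 fl/fl Vav-Cre mice, so that both genotypes carried the Vav-Cre transgene, which acts in blood cells. Marrow of CD45.2 donors was placed in irradiated wild-type CD45.1 recipients, and CD45.2+ donor cells were sorted 13 weeks later as hematopoietic stem cells (HSC, LSK CD48- CD150+) or multipotent progenitors (MPP, LSK CD48+ CD150-). LSK denotes marrow cells without lineage markers that carry Sca-1 and Kit. The 4 groups held 3 arrays each, numbered 66, 67 and 75 in wild-type and 64, 70 and 76 in NFAT5-deficient cells, and each sample gave 300 pg of total RNA, which was amplified before labelling. Ages of the mice are not stated, and no label says whether arrays came from separate mice, so p-values measure only the spread between these samples, which may be technical. The small number of arrays limits the precision of every value. In bulk RNA, fewer cells of a type and less RNA per cell cannot be told apart.

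ABC transporters are membrane proteins that spend ATP to move substrates across a membrane. Abcg2, also called breast cancer resistance protein, pumps out drugs and a Hoechst dye, and this efflux defines the side population in which marrow stem cells are found. Abcb1a and Abcb1b are the pair of mouse genes for P-glycoprotein, the classical multidrug pump, while Abcc1 and Abcc4 encode the multidrug resistance proteins MRP1 and MRP4. Abcg1 exports cholesterol rather than drugs, and Abcg3 is a rodent gene closest to Abcg2 whose substrate is not established. The name drug efflux therefore does not cover all 7 genes.

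Promoter windows from RefSeq on GRCm38.p6 are shown for Abcg3, which was chosen from its measured values, and for its relative Abcg2. Each runs 5′ to 3′ along the gene, from 250 bases before an annotated start to 50 bases after it. Capitals mark matches, on either strand, to an NFAT-type core (TGGAAA), an ETS-type motif (AGGAAGT), a RUNX-type motif (TGTGGT) or a GATA-type motif (AGATAA); no match overlapped another.
Abcg3, chr5:104982668-104982967, minus strand: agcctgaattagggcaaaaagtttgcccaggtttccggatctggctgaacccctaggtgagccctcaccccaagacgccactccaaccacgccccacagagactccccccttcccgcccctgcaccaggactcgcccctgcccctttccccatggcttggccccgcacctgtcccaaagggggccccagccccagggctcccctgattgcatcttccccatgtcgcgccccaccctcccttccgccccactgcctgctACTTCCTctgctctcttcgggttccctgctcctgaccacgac
Abcg2 start 1, chr6:58584283-58584582, plus strand: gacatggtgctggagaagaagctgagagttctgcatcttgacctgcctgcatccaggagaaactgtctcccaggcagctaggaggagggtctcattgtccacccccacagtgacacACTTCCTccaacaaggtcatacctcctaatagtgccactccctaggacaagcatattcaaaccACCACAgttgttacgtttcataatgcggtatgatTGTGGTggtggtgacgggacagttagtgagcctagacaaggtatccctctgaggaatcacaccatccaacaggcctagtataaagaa
Abcg2 start 2, chr6:58596422-58596721, plus strand: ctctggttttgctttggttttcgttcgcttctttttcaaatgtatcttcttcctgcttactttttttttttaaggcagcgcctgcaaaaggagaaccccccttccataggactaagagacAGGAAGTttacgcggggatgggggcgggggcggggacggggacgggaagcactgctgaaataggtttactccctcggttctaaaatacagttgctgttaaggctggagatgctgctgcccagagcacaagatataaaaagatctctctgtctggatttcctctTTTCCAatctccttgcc
Abcg2 start 3, chr6:58640296-58640595, plus strand: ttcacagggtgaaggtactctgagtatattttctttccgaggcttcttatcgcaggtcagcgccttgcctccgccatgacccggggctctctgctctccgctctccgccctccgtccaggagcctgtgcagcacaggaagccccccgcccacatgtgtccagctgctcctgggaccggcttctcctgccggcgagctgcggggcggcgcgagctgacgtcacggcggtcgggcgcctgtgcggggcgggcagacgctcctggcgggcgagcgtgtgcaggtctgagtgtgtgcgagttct

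The Abcg3 window had a GC content of 65.3% and 11 CpG pairs, against medians of 52.7% and 7 over 32851 windows of the same length. Its single match was an ETS-type motif on the opposite strand, at bases 9 to 15 counted from the first transcribed base as 1. ETS-type matches were present in 9.35% of all windows, RUNX-type in 16.8%, GATA-type in 11.2% and the NFAT-type core in 21.4%. In Abcg2, start 1 held an ETS-type and 2 RUNX-type matches, start 2 held an ETS-type match and an NFAT-type core, and start 3 held none. Abcc4 had 1 NFAT-type core in 1 of its windows, Abcb1a and Abcb1b had no match to any of the 4 motifs, and Abcg1 and Abcc1 were not matched to a window. A match is a string of letters in a window, and which start these cells use was not measured.

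The labels were checked against the arrays. Nfat5 read 9.49 ± 0.29 in wild-type HSC, 8.24 ± 0.58 in NFAT5-deficient HSC, 8.58 ± 0.41 in wild-type MPP and 7.92 ± 0.42 in NFAT5-deficient MPP on the log2 intensity scale (SD, n = 3). The HSC genotypes did not overlap, while in MPP the NFAT5-deficient array 76 (8.40) lay above the wild-type array 75 (8.12). Whether its probe set covers the deleted exons is not known here. Slamf1, which encodes CD150, was above 9.2 on all 6 HSC arrays and at most 6.90 on the MPP arrays, and Cd48 was at most 7.85 in HSC and at least 9.26 in MPP. Wild-type HSC array 66 and NFAT5-deficient HSC array 70 stood at opposite ends of the second principal component, which held 12.3% of the variance. As a guide to background, 1400 olfactory and vomeronasal receptor genes, which blood cells are not known to use, had group means from 3.73 (5th percentile) to 6.23 (95th percentile), called here the low-signal range.

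Of the 7 genes, Abcg3 alone had a gap between 2 neighbouring groups that exceeded the larger SD without overlap of the arrays. It read high in HSC and at the level of background in MPP. For the other 6 genes the stem cell and progenitor arrays overlapped in both genotypes. limma called none of the 7 in any comparison in which it was tested. Of all 19494 genes, 7.54% (wild-type) and 11.5% (NFAT5-deficient) had every HSC array above every MPP array. The share with every HSC array below was not counted. In no comparison did limma call more than 0.61% of all genes. Lacking such a rise or a call therefore does not set a gene apart. Among NFAT5-deficient arrays, the contrast with Abcg3 rests on the values it was chosen by. The levels of the 7 genes on every array are plotted in the panels by gene.

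**Figure D1:**
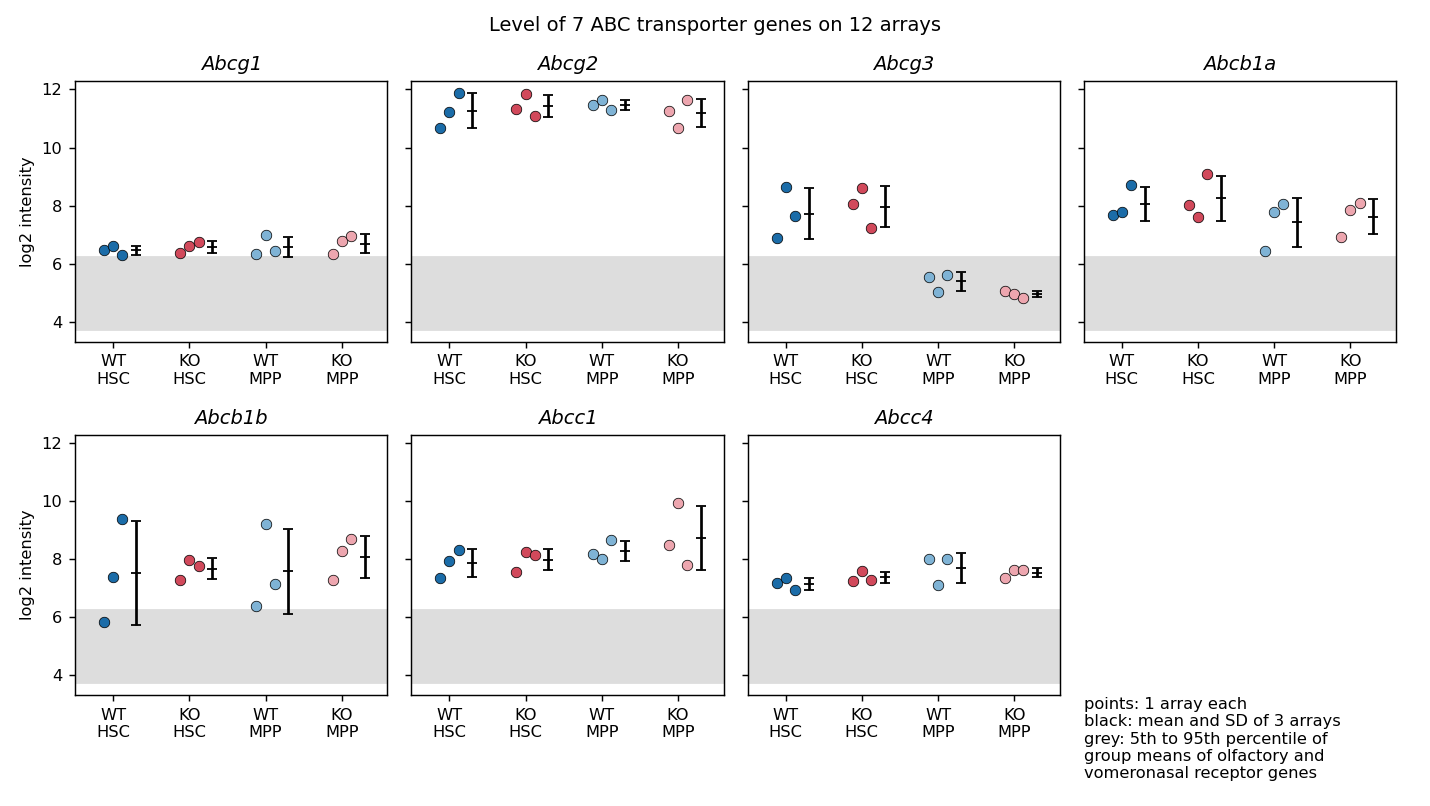
Log2 intensity (y axis) of the 7 transporter genes in the 4 groups (x axis); each point is 1 array, black marks are the mean and SD of 3 arrays, and the grey band is the low-signal range from 3.73 to 6.23. Abcg3 lies between 6.89 and 8.65 on the 6 HSC arrays and between 4.83 and 5.61 on the 6 MPP arrays, while the HSC and MPP arrays of the other 6 genes overlap.

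Abcg3 read 6.89, 8.65 and 7.64 on wild-type HSC arrays 66, 67 and 75, a mean of 7.73 ± 0.88 (SD, n = 3). On wild-type MPP arrays 66, 67 and 75 it read 5.55, 5.03 and 5.61, a mean of 5.39 ± 0.32 (SD, n = 3). All 3 HSC arrays lay above all 3 MPP arrays, and the lowest HSC array was number 66. Genes with wild-type HSC arrays all above the MPP arrays made up 7.54% of the 19494 tested, so the separation by itself is shared with many genes. The group means of this comparison come from arrays that the stated reason for choosing Abcg3 did not use. However, limma's estimate of the spread came from all 12 arrays, which include those used. The members were also chosen with earlier results of these data known, so this comparison is not an independent test of Abcg3. The difference was 2.33 on the log2 scale (SE 0.43, 95% confidence interval 1.38 to 3.28), the 26th highest of all genes. It did not pass the test (limma adjusted p = 0.0813, unadjusted p = 0.000229), and the exact two-sided permutation p was 0.1, the smallest that 3 against 3 arrays allow. Over 22 other settings limma's adjusted p ran from 0.0336 to 0.298 with the difference at 1.87 to 2.75. With the wild-type groups fitted alone, which leaves out the NFAT5-deficient arrays, limma's adjusted p was 0.285. It was under 0.05 in 2 of the 22, without wild-type HSC array 66 (difference 2.75, adjusted p = 0.0483) and without both HSC arrays that stood apart (2.75, adjusted p = 0.0336). Since the MPP mean lay in the low-signal range, the size of the difference is not resolved.

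In NFAT5-deficient cells, from which the gene was chosen, Abcg3 read 8.06, 8.61 and 7.22 on HSC arrays 64, 70 and 76 (7.96 ± 0.70, SD, n = 3). The MPP arrays with the same numbers read 5.05, 4.96 and 4.83 (4.95 ± 0.11, SD, n = 3), all within the low-signal range. The difference of 3.01 was the 8th highest of all genes and ran from 2.69 to 3.39 over 22 other settings; 11.5% of genes had all 3 NFAT5-deficient HSC arrays above the MPP arrays. Nothing is read from these values beyond the choice itself. By genotype, Abcg3 differed by 0.24 in HSC and by -0.45 in MPP (NFAT5-deficient minus wild-type), with overlapping arrays in both populations. The HSC value was -0.18 without wild-type array 66, -0.09 without NFAT5-deficient array 70 and -0.50 without both.

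Some lists of marker genes moved with the population in which Abcg3 read high. The mean of 12 measured HSC markers (of 13 listed) ran from 8.53 to 9.09 over the HSC arrays and from 7.24 to 7.74 over the MPP arrays. In wild-type HSC 3 of the 12 rose by limma's test against MPP and 0 fell, and in NFAT5-deficient HSC 2 rose and 0 fell. Over all genes, 0.164% and 0.21% were called in these comparisons, in either direction. The mean of 7 megakaryocyte and platelet markers (of 8 listed) ran from 7.71 to 8.07 in HSC and from 6.78 to 7.10 in MPP, with 1 higher call in each genotype. The mean of 7 MPP and lymphoid priming markers (of 8 listed) ran from 6.26 to 6.54 in HSC and from 8.79 to 9.39 in MPP. Of these 7, limma called 3 lower in wild-type HSC and 4 lower in NFAT5-deficient HSC, with 0 higher. Within each genotype the array means of the monocyte and macrophage list also lay lower in HSC without overlap. So did those of the mast cell and basophil list, and both lists read near the low-signal range. Slamf1 is on the HSC list and Cd48 on the MPP list. The cells were sorted on their products, so part of the movement was set by the sort. All 9 mature neutrophil markers were measured, and their mean ran from 5.52 to 7.38 on wild-type HSC arrays, 5.42 to 5.53 on NFAT5-deficient HSC arrays, 5.96 to 7.02 on wild-type MPP arrays and 6.02 to 6.62 on NFAT5-deficient MPP arrays. The part of these lists in the Abcg3 values was not tested.

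Abcg2, the side population pump, was far above the low-signal range in all 4 groups, and no group stood apart. It read 10.68, 11.23 and 11.88 on wild-type HSC arrays 66, 67 and 75 (11.26 ± 0.60, SD, n = 3) and 11.46, 11.63 and 11.29 on the matching wild-type MPP numbers (11.46 ± 0.17). NFAT5-deficient HSC arrays 64, 70 and 76 read 11.33, 11.83 and 11.10 (11.42 ± 0.38), and NFAT5-deficient MPP arrays read 11.27, 10.69 and 11.63 (11.19 ± 0.47). Every pair of groups overlapped, and both the lowest and the highest reading came from wild-type HSC. HSC minus MPP was -0.19 in wild-type (95% confidence interval -0.89 to 0.50, limma adjusted p = 0.908) and 0.23 in NFAT5-deficient cells (-0.47 to 0.92, limma adjusted p = 0.877). Without wild-type HSC array 66 the first was 0.10, and without NFAT5-deficient HSC array 70 the second was 0.02. Averaged over genotypes it was 0.02 (-0.48 to 0.51), and -0.03 with each array centred on its median. These intervals give the differences, in either direction, that are compatible with the arrays before adjustment. They are not limits of detection, and larger differences could also fail the adjusted test.

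The P-glycoprotein genes also had all group means above the low-signal range. Abcb1a read 7.67, 7.77 and 8.72 in wild-type HSC (8.05 ± 0.58, SD, n = 3) and 6.45, 7.76 and 8.05 in wild-type MPP (7.42 ± 0.85), in the order of arrays 66, 67 and 75. In NFAT5-deficient cells it read 8.04, 7.60 and 9.10 in HSC (8.25 ± 0.77) and 6.94, 7.84 and 8.09 in MPP (7.62 ± 0.60), in the order 64, 70 and 76. The means were higher in HSC by 0.63 in each genotype, but arrays overlapped. Single arrays moved the difference to between 0.14 (without MPP array 66) and 0.94 (without MPP array 75) in wild-type and between 0.20 (without HSC array 76) and 0.95 (without HSC array 70) in NFAT5-deficient cells. For the average, the 95% confidence interval was -0.20 to 1.46, and limma's adjusted p was 0.796 (wild-type), 0.79 (NFAT5-deficient) and 0.529 for the average.

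Abcb1b, the second P-glycoprotein gene, varied more between replicates than between groups. It read 5.82, 7.38 and 9.39 on wild-type HSC arrays 66, 67 and 75 (7.53 ± 1.79, SD, n = 3). Arrays 66 and 75 of this group were the lowest and the highest of all 12, 3.57 apart, and the reading of array 66 lay within the low-signal range. Wild-type MPP read 6.38, 9.23 and 7.14 (7.58 ± 1.47), NFAT5-deficient HSC 7.29, 7.98 and 7.76 (7.68 ± 0.35) and NFAT5-deficient MPP 7.28, 8.28 and 8.69 (8.08 ± 0.73). Its SD within groups, 1.23 pooled over the 4 groups, was higher than that of 96.0% of the 2983 genes within 0.5 of its level. HSC minus MPP was -0.05 in wild-type, with a 95% confidence interval of -2.0 to 1.91; leaving out 1 array moved it to between -0.98 (without HSC array 75) and 0.81 (without HSC array 66). Among the named, measured genes in RefSeq's order (GRCm38.p6), Abcb1a, Abcb1b and Abcb4 lie side by side. They are close copies, and how far the probes tell them apart was not tested.

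Abcc1 (MRP1), which exports glutathione conjugates and leukotriene C4, had its highest group mean in NFAT5-deficient MPP through 1 array. It read 7.36, 7.93 and 8.31 in wild-type HSC (7.87 ± 0.48, SD, n = 3), and 7.57, 8.24 and 8.15 in NFAT5-deficient HSC (7.98 ± 0.37). In MPP it read 8.17, 8.0 and 8.67 in wild-type (8.28 ± 0.35) and 8.49, 9.93 and 7.78 in NFAT5-deficient cells. Array 70 of that group alone stood above the rest, the arrays overlapped, and HSC minus MPP came to -0.41 (wild-type) and -0.75 (NFAT5-deficient; limma adjusted p = 0.868 and 0.736). The wild-type value was -0.16 without HSC array 66, and the NFAT5-deficient value ran from -1.23 without MPP array 76 to -0.15 without MPP array 70.

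Abcc4 (MRP4), an exporter of cyclic nucleotides and nucleotide analogues, had lower means in HSC than in MPP in both genotypes. It read 7.19, 7.33 and 6.92 in wild-type HSC (7.15 ± 0.21, SD, n = 3) and 7.99, 7.12 and 8.01 in wild-type MPP (7.71 ± 0.51). In NFAT5-deficient cells it read 7.24, 7.60 and 7.27 in HSC (7.37 ± 0.20) and 7.37, 7.61 and 7.63 in MPP (7.54 ± 0.15). In wild-type cells MPP array 67 fell among the HSC arrays. The difference of -0.56 there (95% confidence interval -1.14 to 0.02) had an unadjusted p of 0.0581 and an adjusted p of 0.576 by limma, and in NFAT5-deficient cells the difference was -0.17, or -0.28 without HSC array 70.

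Abcg1, the cholesterol exporter, lay just above the low-signal range in every group. Its 12 readings ran from 6.29 to 6.98, with group means of 6.46 ± 0.17 in wild-type HSC, 6.58 ± 0.19 in NFAT5-deficient HSC, 6.57 ± 0.35 in wild-type MPP and 6.69 ± 0.32 in NFAT5-deficient MPP (SD, n = 3). HSC minus MPP was -0.11 for wild-type arrays and -0.12 for NFAT5-deficient arrays, and no groups separated.

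Against all genes, the members' calls were as follows. In wild-type HSC against MPP, limma called 0 of the 7 members at an adjusted p under 0.05, where it called 0.164% of all 19494 genes. At an unadjusted p under 0.05 there was 1 of 7 members, Abcg3, where 8.9% of all genes passed. In NFAT5-deficient cells 0 of the 6 members tested were called (0 at an unadjusted p under 0.05, against 7.9% of all genes), where 0.21% of all genes were called. For the average of both genotypes 0 of 6 were called (0 unadjusted, against 12.2%), where 0.61% of all genes were called. With such low shares of called genes, a count of 0 among 7 or 6 is close to the background and does not show that the members were level.

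**Figure D2:**
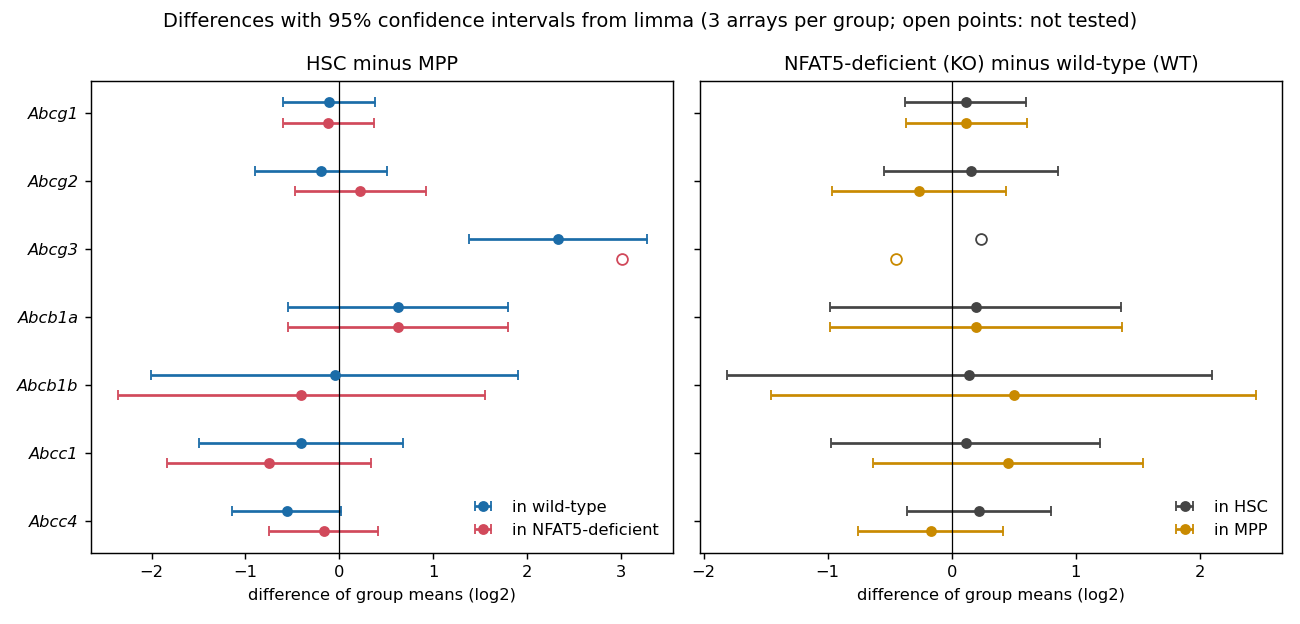
Difference of group means on the log2 scale (x axis) for the 7 genes (y axis), HSC minus MPP at left and NFAT5-deficient minus wild-type at right; bars are 95% confidence intervals from limma with 3 arrays per group, and open points are Abcg3 values given with no test. The interval of Abcg3 in wild-type cells (1.38 to 3.28) stands clear of 0 before adjustment, and the other intervals include 0.

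No difference between genotypes was detectable in the 6 members tested. In HSC all 6 had a slightly higher mean in NFAT5-deficient cells, by 0.11 to 0.22, with limma adjusted p of 0.93 or more. Leaving out arrays turned several of these signs. With wild-type array 66 and NFAT5-deficient array 70 left out the differences were -0.34 for Abcg2, -0.87 for Abcb1b and -0.27 for Abcc1, with 0.10 for Abcg1, 0.32 for Abcb1a and 0.12 for Abcc4. Without NFAT5-deficient array 76 the difference of Abcb1a was -0.23. In MPP the differences ran from -0.26 for Abcg2 to 0.50 for Abcb1b, 4 higher and 2 lower, with limma adjusted p of 0.901 or more. In both populations 0 of 6 were called (0 at an unadjusted p under 0.05), against 0% of all genes in HSC (1205 genes at an unadjusted p under 0.05) and 0.00513% in MPP. No member had genotype groups that did not overlap, against 10.2% of all genes in HSC and 12.6% in MPP. Averaged over populations 0 of 6 were called (0 unadjusted; 0% of all genes, 1386 unadjusted), with differences from -0.05 to 0.32. The genotype effect in HSC minus that in MPP, an interaction term, ran from -0.36 to 0.42, again with 0 of 6 called (0 unadjusted; 0% of all genes, 817 unadjusted). The intervals were wide: for Abcg2 the genotype difference in HSC lay between -0.54 and 0.86, and for Abcb1b between -1.81 and 2.10. Of the mature neutrophil markers in HSC, 8 of 9 had lower means in NFAT5-deficient cells (median -0.92, against -0.05 over all genes, 0 called by limma, 2 lower at an unadjusted p under 0.05). Their list mean was 6.60 with 4 of 9 above the low-signal range in wild-type HSC and 5.48 with 1 of 9 above it in NFAT5-deficient HSC. The genotypes overlapped, since the array means ran from 5.52 to 7.38 in wild-type and from 5.42 to 5.53 in NFAT5-deficient HSC. The part of these markers in the members' values was not tested. Nfat5 itself was not called either, so a missing call does not show that a member was level.

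The other ABC transporter genes give the setting. Of 46 listed, 44 were measured, with 15 above the low-signal range in all 4 groups, 24 within it in all 4 groups and 5 in between. limma called 0 of 44 in either population comparison and 0 of 44 in either genotype comparison. At an unadjusted p under 0.05 there were 3 of 44 for HSC against MPP of the wild-type, 4 for the same comparison in NFAT5-deficient cells, 1 for genotype in HSC and 4 for genotype in MPP. Over all genes the shares at that threshold were 8.9%, 7.9%, 6.18% and 5.35%, so these counts lie near the background. Their median HSC minus MPP difference was 0.08 (wild-type) and 0.10 (NFAT5-deficient), beside 0.05 and 0.07 over all genes.

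Abcc8, the sulfonylurea receptor gene, had the smallest p of the 44 in wild-type cells at a difference of 0.58 (limma adjusted p = 0.182), and all its group means were in the low-signal range. Abcg8, encoding a subunit of the hepatobiliary and intestinal sterol exporter, had the smallest p in NFAT5-deficient cells, also at 0.58 (limma adjusted p = 0.176) and also within that range. Abca1, the exporter of cholesterol to apolipoprotein A-I, read 6.71 ± 0.63 in wild-type HSC, 6.85 ± 0.35 in NFAT5-deficient HSC, 5.87 ± 0.33 in wild-type MPP and 7.59 ± 0.39 in NFAT5-deficient MPP (SD, n = 3). Its genotype difference in MPP was 1.72 with a limma adjusted p of 0.597, and the MPP arrays of the wild-type lay in the low-signal range on average. Abcd2, a peroxisomal fatty acid transporter gene, read lower in HSC by values of -1.18 (wild-type) and -1.35 (NFAT5-deficient), averaging -1.26 (limma adjusted p = 0.24). Its HSC means of 5.30 and 5.25 lay within the low-signal range, so the size is not resolved.

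**Figure D3:**
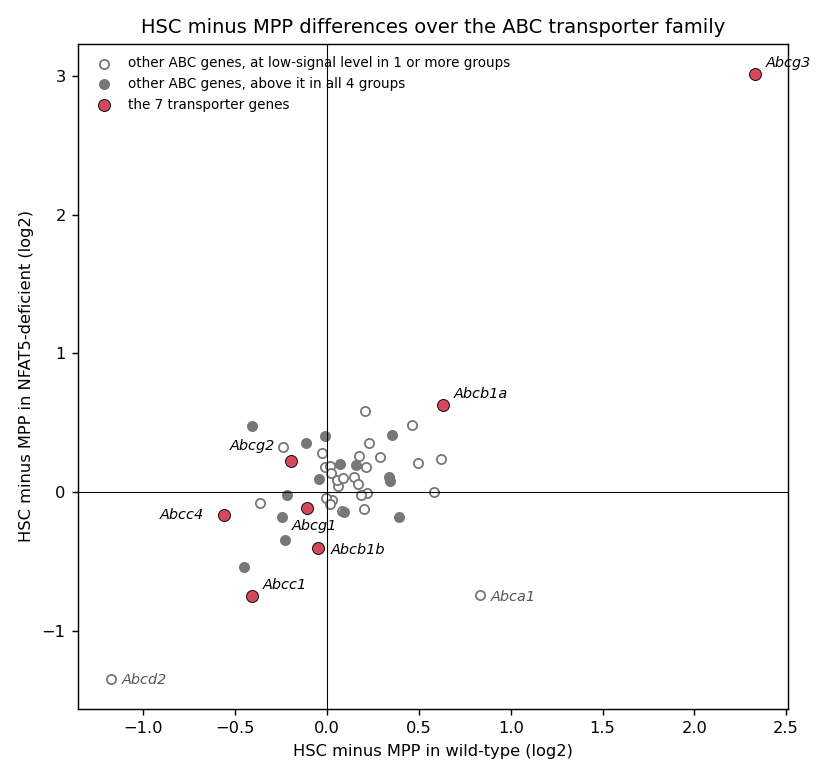
HSC minus MPP difference on the log2 scale in wild-type (x axis) and NFAT5-deficient cells (y axis) for the 7 genes (red) and 44 other ABC genes (grey; open where a group mean lies in the low-signal range). Abcg3 lies at 2.33 and 3.01, the latter value being the one it was chosen for, and the other members lie between -0.75 and 0.63.

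Genes that act on or with these pumps did not pass the test. Of 16 listed regulators of transporter genes, 14 were measured and limma called 0 in the population and genotype comparisons (1 at an unadjusted p under 0.05 in wild-type HSC against MPP, 0 in the others). The smallest p in wild-type HSC against MPP belonged to Rxrb, a retinoid X receptor gene, at -1.02 (limma adjusted p = 0.554), and for the average of both genotypes to Hif1a, the oxygen-regulated factor gene, at -0.92 (limma adjusted p = 0.466). All 12 membrane anchors and glutathione partners were measured and limma called 0 (1 at an unadjusted p under 0.05 for genotype in HSC, 0 in the other comparisons within 1 genotype or population). Gclc, the catalytic subunit of glutamate-cysteine ligase, read 8.41 ± 1.24 in HSC and 9.67 ± 0.54 in MPP of the wild-type (SD, n = 3; difference -1.26, limma adjusted p = 0.616).

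Among 17051 genes, without unnamed gene models or olfactory and vomeronasal receptors, Pearson r over the 12 arrays gave those most like each member. For Abcg3 they were Cavin2 (r = 0.94), a gene of caveolae, Slamf1 (0.93), on whose product the cells were sorted, and Plcl1 (0.93). All 3 share with Abcg3 higher means in HSC of both genotypes. That follows in part from its choice, since the NFAT5-deficient arrays used for it are among the 12. Cavin2 read 6.34 in wild-type HSC and 7.23 in NFAT5-deficient HSC against 4.48 and 4.18 in the MPP groups. The MPP means of Cavin2 and Plcl1 lay within the low-signal range. For Abcg2 the list was Rexo5 (0.93), Greb1l (0.91) and Rsf1 (0.87), of which Greb1l stayed in the low-signal range on every array. The top genes were Nek6 (0.89) for Abcg1, Creb3l2 (0.89) for Abcb1a, Cep350 (0.90) for Abcb1b, Cwf19l2 (0.91) for Abcc1 and Pus3 (0.93) for Abcc4. These are descriptions over 12 arrays that share groups and normalization, chosen as the highest of many.

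In wild-type cells no neighbouring gene on the chromosome had a difference as large as that of Abcg3. Since Abcg3 ranked 26th highest of 19494 genes there, smaller values in 6 other genes say nothing about the locus. Because Abcg3 was chosen for its rise in NFAT5-deficient cells, smaller differences of its neighbours there are a description only. Neighbours were taken in RefSeq's order (GRCm38.p6) among measured protein-coding genes, without unnamed gene models or olfactory and vomeronasal receptors. They are Mepe, Thoc2l and Zfp951 on one side and the guanylate-binding protein genes Gbp8, Gbp9 and Gbp4 on the other. This window was set after the values of Abcg3 were known. Gbp8, the nearest of these on its side, read 7.30 ± 0.74 in HSC and 6.38 ± 0.65 in MPP of the wild-type (SD, n = 3). The difference was 0.91 there (limma adjusted p = 0.58). In NFAT5-deficient cells Gbp8 read 7.48 ± 0.08 against 6.68 ± 0.62, a difference of 0.80 (limma adjusted p = 0.683). Zfp951, on the other side, differed by 0.42 and 0.12 in the same order (limma adjusted p = 0.77 and 0.936). The differences of the 6 neighbours ran from -0.25 to 0.91 in wild-type cells and from -0.09 to 0.80 in NFAT5-deficient cells, with limma adjusted p of 0.58 or more.

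**Figure D4:**
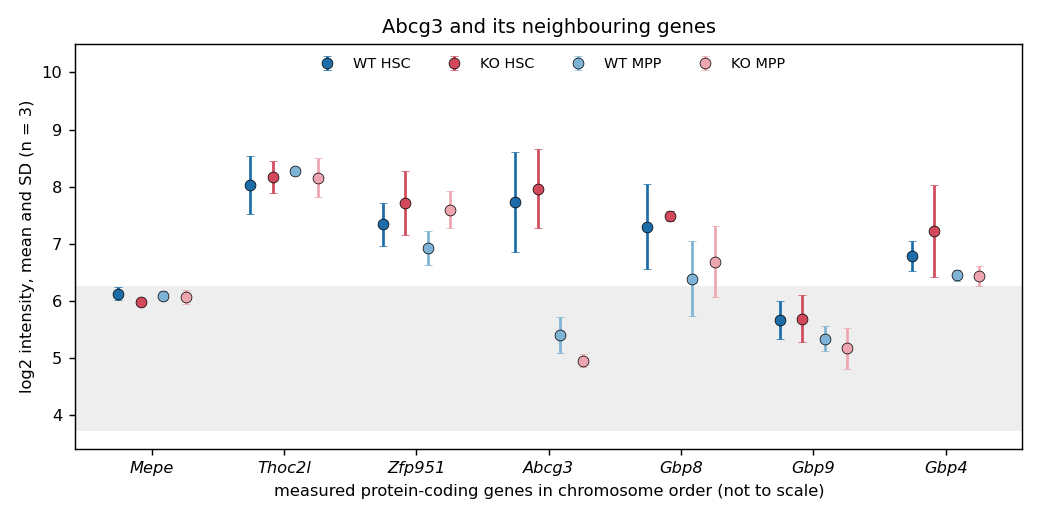
Log2 intensity (y axis, mean and SD, n = 3) of Abcg3 and the named, measured protein-coding genes around it, with the low-signal range in grey. Genes are in chromosome order (x axis, not to scale). Abcg3 reads 7.73 in HSC and 5.39 in MPP of the wild-type, and Gbp8 has the next highest wild-type difference, 0.91.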

How the data were processed

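Single-colour arrays measured 12 samples. The authors deposited log2 intensities, 1 per probe set and array, with the scale read from the values (2.51 to 13.28). RMA and limma are named in the submitters' processing notes, with no version. For the array annotation, version and build are not given in the sources used here. Of 22142 probe sets, 19527 had 1 gene symbol, 0 had several and 2615 had none. For 33 genes with several probe sets the brightest was used, which left 19494 genes.

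Differences were tested on the deposited values with limma 3.58.1 in R 4.3.3, with 4 group means over 12 arrays and an intensity trend. P-values were adjusted by the Benjamini-Hochberg method over all genes, with calls at an adjusted p under 0.05. The fit was tested on simulated data made from deviations from group means, shuffled within each gene, with changes planted only in brighter genes. Shuffling removes the pattern of outlying arrays, and Abcg3 and Abcg1 were dimmer than those genes. The simulation therefore does not show how well a change in these members would be found. Figures used Python 3.11.15 and matplotlib 3.10.9.

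Genes were named by rule: the 7 members, the 2 smallest p-values per list where none was called (of which a subset is printed), and the 3 genes most like each member. The neighbours of Abcg3 were added after its values were seen. The members and lists were chosen with earlier results of these data known. Same-numbered HSC and MPP arrays did not deviate together (r from -0.01 to 0.06 over genes), so numbers were not treated as pairs. Settings varied were the variance prior, dim-gene filter, arrays fitted, normalization, array weights, probe set choice, replicate block and each array left out. Leaving out both outlying HSC arrays was chosen after seeing the data.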

Additional observations from a re-analysis of the deposited data

How the results depend on the processing

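Leaving out 1 array at a time, 392 of 420 member differences kept their direction, and under the other settings 334 of 343 did. Many of these values could not change. A comparison within 1 genotype or population keeps its value when an array outside it is left out. The variance prior, dim-gene filter, fit of only the groups compared, replicate block and probe set choice also leave member differences unchanged. These counts therefore overstate how stable the directions were. Genes called in HSC against MPP, 32 in wild-type, 41 in NFAT5-deficient cells and 119 averaged, ran from 11 to 30, 5 to 32 and 71 to 112 with 1 array left out. Genotype calls ran from 0 to 3 in HSC, 0 to 4 in MPP, 0 to 2 averaged and 0 to 1 for the interaction. With only the groups compared, 9 (wild-type), 12 (NFAT5-deficient) and 0 (genotype in MPP) were called, and without both outlying HSC arrays 18, 23, 79 (averaged) and 0 (genotype in MPP). NFAT5-deficient HSC against MPP gave 23 with robust eBayes or quantile normalization. Genotype in MPP gave 2 with quantile normalization, 3 with median centring and 6 with array weights, and the interaction gave 1 without dim genes. With the sample number as a replicate block, which the deviations do not bear out as a pairing, 5 wild-type, 3 NFAT5-deficient and 52 averaged genes were called, and Abcg3 in wild-type cells kept 2.33 with a limma adjusted p of 0.298. Members called in wild-type cells ran from 0 to 1 with 1 array left out and were 1 without both outlying arrays, that 1 being Abcg3 (2.75; 1.87 to 2.75 with 1 array left out).

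Reversals were all among values that did not pass or, for Abcg3, were not tested. Abcg2 averaged over genotypes was -0.0333 with median centring and -0.0053 with array weights. Without both outlying HSC arrays, HSC minus MPP in wild-type was 0.10 for Abcg2 and 0.81 for Abcb1b, averaged 0.12 for Abcb1b, and the genotype difference in HSC was -0.34 for Abcg2, -0.87 for Abcb1b, -0.27 for Abcc1 and -0.50 for Abcg3. With 1 array left out, HSC minus MPP in wild-type ran from -0.24 to 0.0911 for Abcg1, -0.51 to 0.10 for Abcg2 and -0.98 to 0.81 for Abcb1b. In NFAT5-deficient cells it ran from -0.30 to 0.0168 for Abcg1 and -0.0278 to 0.44 for Abcg2, and averaged from -0.14 to 0.16 for Abcg2 and -0.69 to 0.20 for Abcb1b. Genotype in HSC ran from -0.13 to 0.47 for Abcg2, -0.18 to 0.70 for Abcg3, -0.23 to 0.53 for Abcb1a, -0.71 to 1.07 for Abcb1b and -0.14 to 0.34 for Abcc1. Genotype in MPP ran from -0.0131 to 0.32 for Abcg1, -0.29 to 0.54 for Abcb1a, -0.10 to 1.32 for Abcb1b and -0.14 to 0.93 for Abcc1. The cause was not tested. Averaged comparisons and the interaction use all 4 groups, so a fit of only the groups compared gave no separate value there. Signal over background limits Abcg3 in MPP and Abcg1, both at or near the low-signal range.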

Other observations

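Among other members of the family, the peptide transporter genes Tap1 and Tap2, which load antigenic peptides for MHC class I, were above the low-signal range in all 4 groups. Tap1 had group means of 9.31 ± 0.37 in wild-type HSC, 9.22 ± 0.43 in NFAT5-deficient HSC, 9.53 ± 0.31 in wild-type MPP and 9.24 ± 0.14 in NFAT5-deficient MPP (SD, n = 3). Abce1, a ribosome recycling factor gene of the same family that transports nothing, lay between 9.99 and 10.15 in the 4 group means. Abcb4, the bile phospholipid transporter gene beside Abcb1b, read 5.94 ± 0.27 in HSC of the wild-type and 6.54 ± 0.79 in those without NFAT5 (SD, n = 3; limma adjusted p = 0.852). Tap1, Tap2 and Abce1 were singled out after their values were seen, while Abcb4 was named by the rule. Crot, the carnitine octanoyltransferase gene that follows Abcb4 in RefSeq's order, read 9.91 ± 0.71 in HSC and 7.88 ± 0.61 in MPP of the wild-type (SD, n = 3; difference 2.03, limma adjusted p = 0.0918), and 9.38 ± 0.25 and 9.29 ± 0.21 in NFAT5-deficient cells. Tmem243, the next named gene measured in that order, went the other way in wild-type cells (HSC minus MPP -2.24, limma adjusted p = 0.182). In NFAT5-deficient cells its difference was 0.21. Crot and Tmem243 were singled out after their values were seen, and limma's interaction test passed 0 of 19494 genes (817 at an unadjusted p under 0.05).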
